A study of Mus musculus with 12 samples.

Results

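The genes described here make cholesterol, sense its level in the cell, and take it up, store it or carry it out. There were 34 of them among the 22243 genes in the deposited table, and all 34 reached the minimum of 1 TPM, averaged over 12 libraries, that 8780 genes in all reached. TPM is an abundance of a transcript that is scaled for transcript length and to the same total in every library. They were 19 enzymes of synthesis, 8 genes of sensing and feedback, and 7 genes of efflux, storage, export and uptake. The list was chosen by gene function with the differences between genotypes in these same libraries already known, so values of the contrast between genotypes are a description and carry no test here. Bone marrow-derived macrophages (BM-Mɸs) were grown from mice on a C57Bl/6 background, with conditioned medium of CMG14-12 cells as the source of M-CSF. ErbB4myeKO mice carried floxed ErbB4 and LysMCre, which recombines in myeloid cells, and ErbB4FF littermates carried floxed ErbB4 without the Cre. Each of 6 litters gave 1 culture of either genotype, and all 12 cultures were activated with IFN-γ (100 U/mL, 16 h) followed by LPS (100 ng/mL, 6 h), the classical (M1) activation, before polyadenylated RNA was sequenced. No unactivated culture was analysed here, so every level below is that of an activated cell.

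Cholesterol is built from acetyl-CoA through mevalonate, the isoprenoid farnesyl diphosphate, squalene and lanosterol. When sterol in the endoplasmic reticulum is low, SCAP carries the SREBP transcription factors to the Golgi, where they are cut and released to switch on the genes of synthesis and uptake, and INSIG proteins hold SCAP back when sterol is plentiful. When oxysterols accumulate, the LXR nuclear receptors switch on the efflux pumps ABCA1 and ABCG1, and in macrophages interferon also induces the enzyme that makes 25-hydroxycholesterol, an oxysterol that blocks SREBP processing.

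The macrophage identity of the cultures was checked first. All 7 macrophage markers in the list passed the filter, and their summed level was 2602 to 6223 TPM in ErbB4myeKO and 2708 to 7347 TPM in ErbB4FF libraries. Cd14 made up most of these sums in mean TPM. Fcgr1, an Fc receptor, was lower in ErbB4myeKO in 6 of 6 litters, by a mean log2 ratio of -0.86 ± 0.74 and of -2.201 in litter 2, where the enzymes had their highest ratios, with an adjusted p of 0.603 in limma. Its part in the values of the cholesterol genes was not tested. Markers of lymphocytes and of erythroid cells summed to no more than 0.734 and 0.981 TPM in any library. Erbb4 itself was low in both groups, at 0.280 to 0.852 TPM (median 0.623) in ErbB4myeKO and 0.372 to 0.716 TPM (median 0.404) in ErbB4FF libraries. The TPM of the whole transcript does not separate the floxed part from the rest, so it does not check the deletion. In litters 1 to 4 the summed TPM of 4 Y-linked genes was 36.1 to 49.2 and in litters 5 and 6 it was 0.202 to 0.406, so litters 1 to 4 and litters 5 and 6 may differ by sex, which the labels do not give. Each litter had its own batch on the labels, so litter and batch cannot be told apart. Litter 3 had the fewest genes above 0 TPM in either genotype, 10214 and 10910, where the highest library had 12985.

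In ErbB4FF libraries the most abundant of the 34 genes served storage, export and oxysterol production, and the enzymes of synthesis were lower. Npc2, which hands cholesterol over inside the lysosome, had 654 ± 47.4 TPM (mean ± SD, n = 6), and Ch25h, the interferon-induced cholesterol 25-hydroxylase, had 344 ± 255 TPM. Soat1, which esterifies cholesterol for storage in lipid droplets, had 95.4 ± 16.6 TPM, and Mylip, an ubiquitin ligase that removes lipoprotein receptors, had 60.6 ± 30.6 TPM. The SDs show that Npc2 and Soat1 varied little between litters while Ch25h and Mylip varied widely. The most abundant enzymes of synthesis were Fdps, which makes farnesyl diphosphate, at 34.1 ± 25.1 TPM and Hmgcs1, which makes HMG-CoA, at 31.8 ± 20.0 TPM, levels that their SDs do not separate. The level of Fdps is uncertain, as most of its sequence also occurs in other genes. The lowest of the 34 was Mvk, mevalonate kinase, at 1.24 ± 1.15 TPM, close to Dhcr7, the last reductase of the pathway, at 1.44 ± 0.713 TPM.

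**Figure D1:**
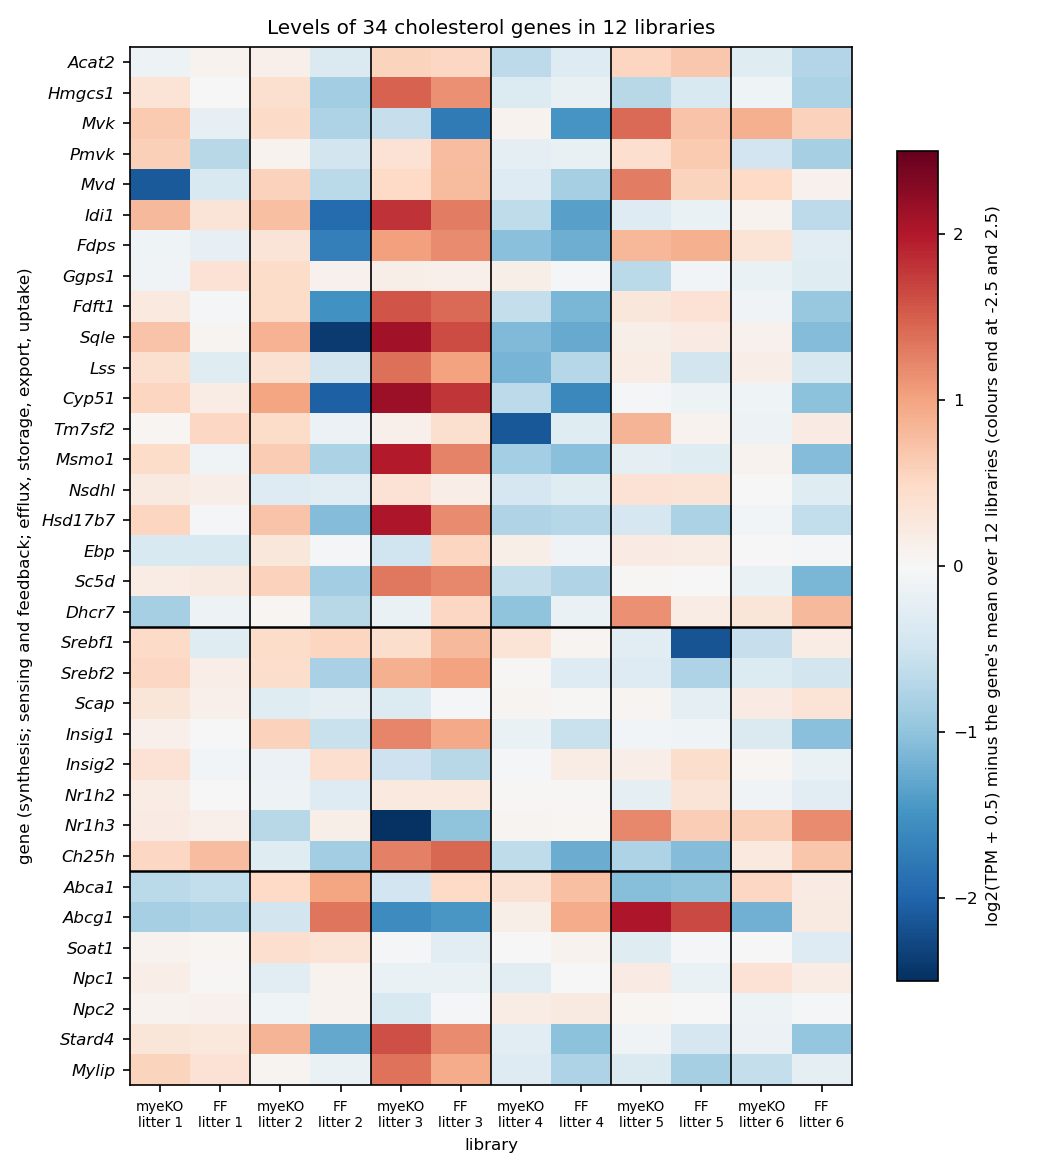
Each row is a gene and each column a library, paired by litter, and the colour gives log2(TPM + 0.5) minus the mean of that gene over the 12 libraries. The pair of columns of litter 3 is red in most rows of synthesis enzymes, whose summed TPM there was 524 and 438, and the ErbB4FF column of litter 2 and both columns of litter 4 are mostly blue.

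Littermate libraries had similar levels of the synthesis enzymes in some litters, but not in litter 2. The summed TPM of the 19 enzymes of synthesis was 196, 94.2, 438, 114, 223 and 125 in ErbB4FF litters 1 to 6, and 240.1, 279, 524, 127, 222 and 199 in their ErbB4myeKO littermates. Litter 3 was the highest and litter 4 was low in both genotypes, whereas litter 2 was the lowest of the ErbB4FF libraries and the second highest of the ErbB4myeKO libraries. A limma F-test of litter, in which genotype was a term and p-values were adjusted over all 8780 genes by Benjamini-Hochberg, called 20 of the 34 genes at an adjusted p under 0.05, or 58.8%, where 44.9% of all genes tested were called. Calls for litter were thus common over all genes and not particular to these. The calls were 12 of 19 enzymes of synthesis, 4 of 8 genes of sensing and feedback and 4 of 7 genes of efflux, storage, export and uptake. The count of 20 dropped to 6 without litter 3 and likewise to 6 without litter 5, and over all genes from 3938 to 3674 and to 1002. Litter and genotype terms are orthogonal in this balanced design, but their tests share a residual variance and the list was chosen with results of these data known.

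Litter 3 was highest for most enzymes and most genes of sensing and feedback, but not for most genes of efflux, storage, export and uptake. Mean log2 level was highest in litter 3 for 11 of 19 enzymes and 5 of 8 genes of sensing and feedback. Over all genes tested litter 3 was highest for 20.7%. For efflux, storage, export and uptake litter 3 was highest for 2 of 7 genes and lowest for 4 of 7. Over all genes tested it was lowest for 29.9%. Litter 4 was lowest for 12 of 19 enzymes, where it was lowest for 10.7% of all genes tested. Among ErbB4FF libraries alone litter 3 was highest for 13 of 19, against 20.8% of all genes. Nr1h3, which encodes LXRα, and Abcg1, an LXR target that exports cholesterol to lipoproteins, were lowest in litter 3. Nr1h3 thus went against most genes of its role. By mean log2 level both were highest in litter 5, but for Nr1h3 litters 5 and 6 were nearly level (5.63 and 5.62). Among ErbB4FF libraries Nr1h3 was highest in litter 6 (59.8 TPM). Litter 5 was also highest for 7 of 19 enzymes, where it was highest for 34.3% of all genes tested. Nr1h3 had 12.7 TPM in the ErbB4FF library of litter 3, and 4.26 TPM in its littermate, where the other 10 libraries had 16.0 to 60.2 TPM. Ch25h had the smallest adjusted p for litter (limma, 0.00221) and also peaked in litter 3. The smaller number of genes detected in litter 3 moved with these values, and its part in them was not tested.

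The spread between control mice was wide for many of these genes. Over the 6 ErbB4FF libraries the highest value was 26.1 times the lowest for Sqle, 16.8 times for Cyp51 and 10.02 times for Idi1, and at most 1.29 times for the lysosomal exporters Npc1 and Npc2. The median range was 2.003 on the log2(TPM + 0.5) scale for the 19 enzymes, 1.89 for sensing and feedback, 1.76 for the genes of efflux, storage, export and uptake, and 1.18 for all genes tested. Outside the enzymes, Srebf1 differed 10.1 times and Abcg1 9.25 times. Mvk differed 30.9 times, but its lowest value, 0.0893 TPM, is too small for that ratio to be precise. The ranges of the genotypes overlapped for all 34 genes.

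Within litters, most enzymes of synthesis were higher in ErbB4myeKO than in ErbB4FF BM-Mɸs, but no gene passed the test. Of the 19 enzymes 15 had a mean log2 ratio of TPM + 0.5 above 0 and 4 below, with a median of 0.44, where the median over all genes tested was -0.00. The median over the enzymes was 0.29, 1.26, 0.15, 0.16, 0.02 and 0.55 in litters 1 to 6, so every litter was above 0, and litter 2 stood furthest out. Without litter 2 the median of 0.44 dropped to 0.20. The limma fit blocked by litter, with p-values adjusted by Benjamini-Hochberg, called 0 of the 34 genes, and 0% of all 8780, with a smallest adjusted p of 0.603. At an unadjusted p under 0.05 there were 9 of 34 genes, all higher, where 8.21% of all genes tested were past that limit, 3.83% higher and 4.38% lower. With no block for litter there were 0 of 34, and with the Y-linked genes as a covariate beside the block 3 of 34. Littermates lay on the same side of the Y-linked split, so the block already holds it. The covariate therefore cannot serve as an adjustment for sex. Higher in all 6 litters were 5 genes, Mvk, Cyp51, Msmo1, Insig1 and Stard4, where 2.51% of all genes were, and lower in all 6 litters were 0 of 34, where 2.31% of all genes were. As the contrast helped to choose the list, nothing is read from these shares. In bulk RNA, fewer cells of a type and less RNA per cell cannot be told apart.

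**Figure D2:**
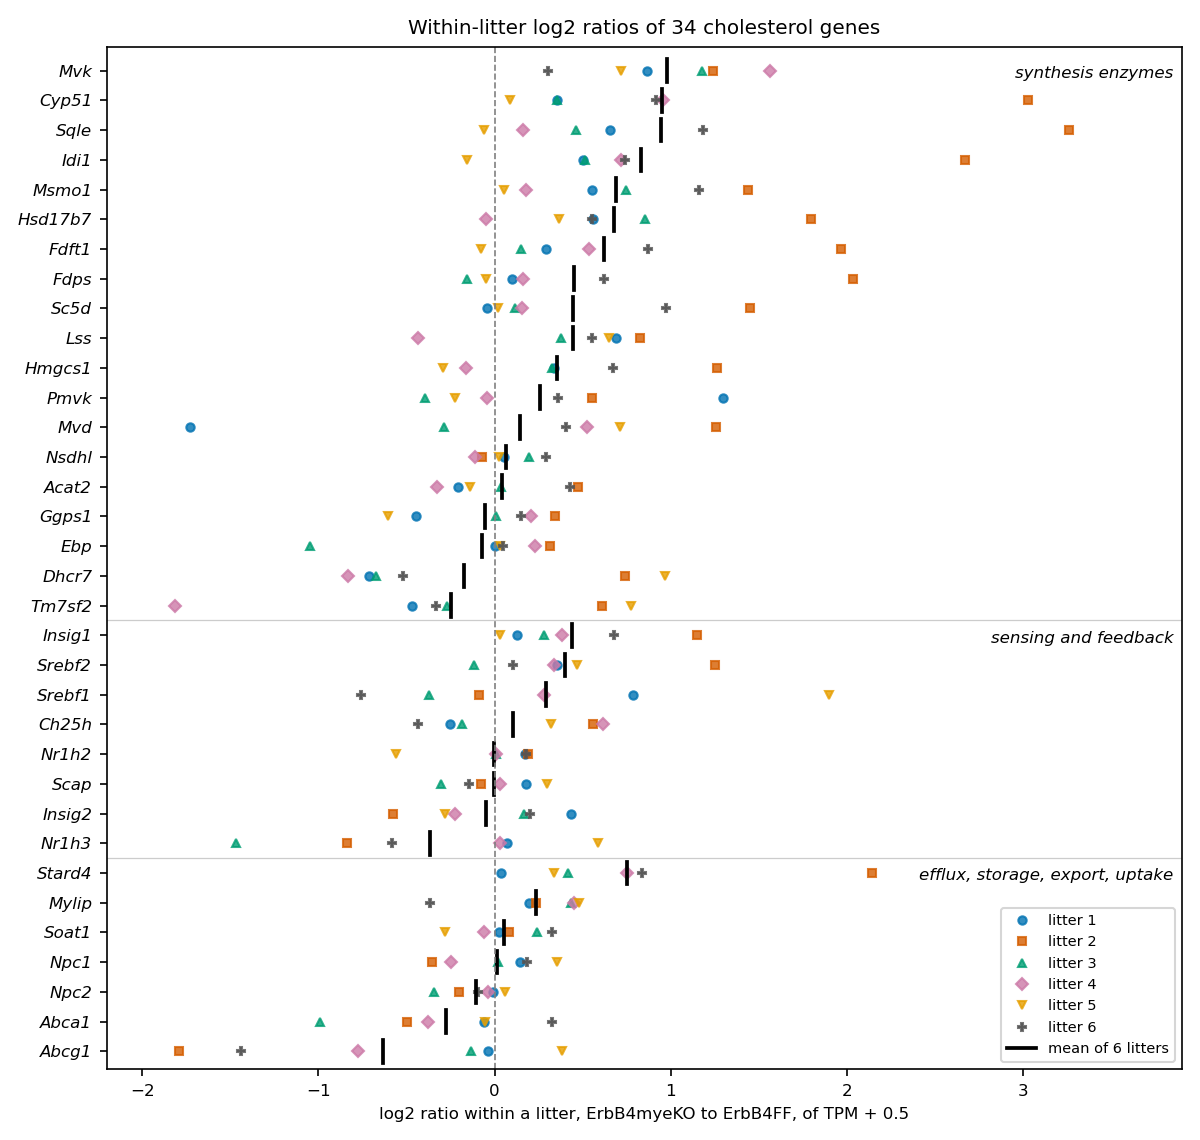
Each point is the log2 ratio of TPM + 0.5 of ErbB4myeKO to ErbB4FF within 1 litter, and the black bar is the mean of the 6 litters, for 34 genes sorted by mean within their role. The points of litter 2 lie far to the right for Sqle (3.26), Cyp51 (3.03) and Idi1 (2.67), and in the other roles the mean bars run from Stard4 (0.75) at the right to Abcg1 (-0.63) at the left.

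The early enzymes convert acetyl-CoA to mevalonate and then to activated isoprene units. Acat2, the thiolase that joins acetyl-CoA units, had a mean log2 ratio of 0.04 ± 0.34 (SD over 6 litters). Hmgcs1 (chromosome 13, 119690379 to 119708260 in GRCm38) had 17.3, 26.2 and 71.0 TPM as the lowest, median and highest of the ErbB4FF libraries and 19.6, 35.04 and 89.0 TPM in ErbB4myeKO libraries. The highest value of either genotype came from litter 3, and the mean ratio of 0.36 ± 0.57, with 4 of 6 litters higher, dropped to 0.17 without litter 2.

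Mvk (chromosome 5, 114444269 to 114460591), which phosphorylates mevalonate, was among the 3 genes with the largest mean ratios, with Cyp51 and Sqle. ErbB4FF libraries of litters 1 to 6 had 1.23, 0.678, 0.0893, 0.215, 2.76 and 2.49 TPM, and their ErbB4myeKO littermates had 2.64, 2.28, 0.834, 1.61, 4.86 and 3.19 TPM. Every ErbB4myeKO library was above its littermate, although the groups overlapped, and litter 3, the highest for most enzymes, was the lowest for Mvk in both genotypes. The mean log2 ratio was 0.98 ± 0.45, and without litter 2 it was 0.92. These TPM are low, and adding 0.1 rather than 0.5 TPM gave a mean ratio of 1.42, and adding 1 TPM gave 0.74, below Cyp51, Sqle and Idi1. Its place was not fixed, since without litter 1, 3, 4 or 5 its mean, 0.86 to 1.03, was below those of Cyp51 and Sqle.

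Pmvk and Mvd, the kinase and the decarboxylase that follow Mvk, had mean ratios of 0.26 ± 0.62 and 0.15 ± 1.04, and that of Mvd ranged from -1.73 in litter 1 to 1.26 in litter 2 and was -0.08 without litter 2. Leaving out litter 1 moved Pmvk to 0.05 and Mvd to 0.52. Idi1 (chromosome 13, 8885501 to 8892451), which isomerizes the isoprene unit, had 5.03, 15.5 and 50.4 TPM as the lowest, median and highest of ErbB4FF and 12.9, 28.2 and 72.3 TPM of ErbB4myeKO libraries. Its mean ratio was 0.83 ± 0.96, with 5 of 6 litters higher, and 0.46 without litter 2. Isoprene units are then joined to longer isoprenoids. Fdps had 9.15, 26.3 and 71.4 TPM in ErbB4FF and 14.8, 39.3 and 64.04 TPM in ErbB4myeKO libraries, with a mean ratio of 0.45 ± 0.82 that was 0.14 without litter 2. Ggps1, which extends farnesyl diphosphate to the geranylgeranyl group used on small GTPases and so leaves the sterol branch, had a mean ratio of -0.06 ± 0.38.

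**Figure D3:**
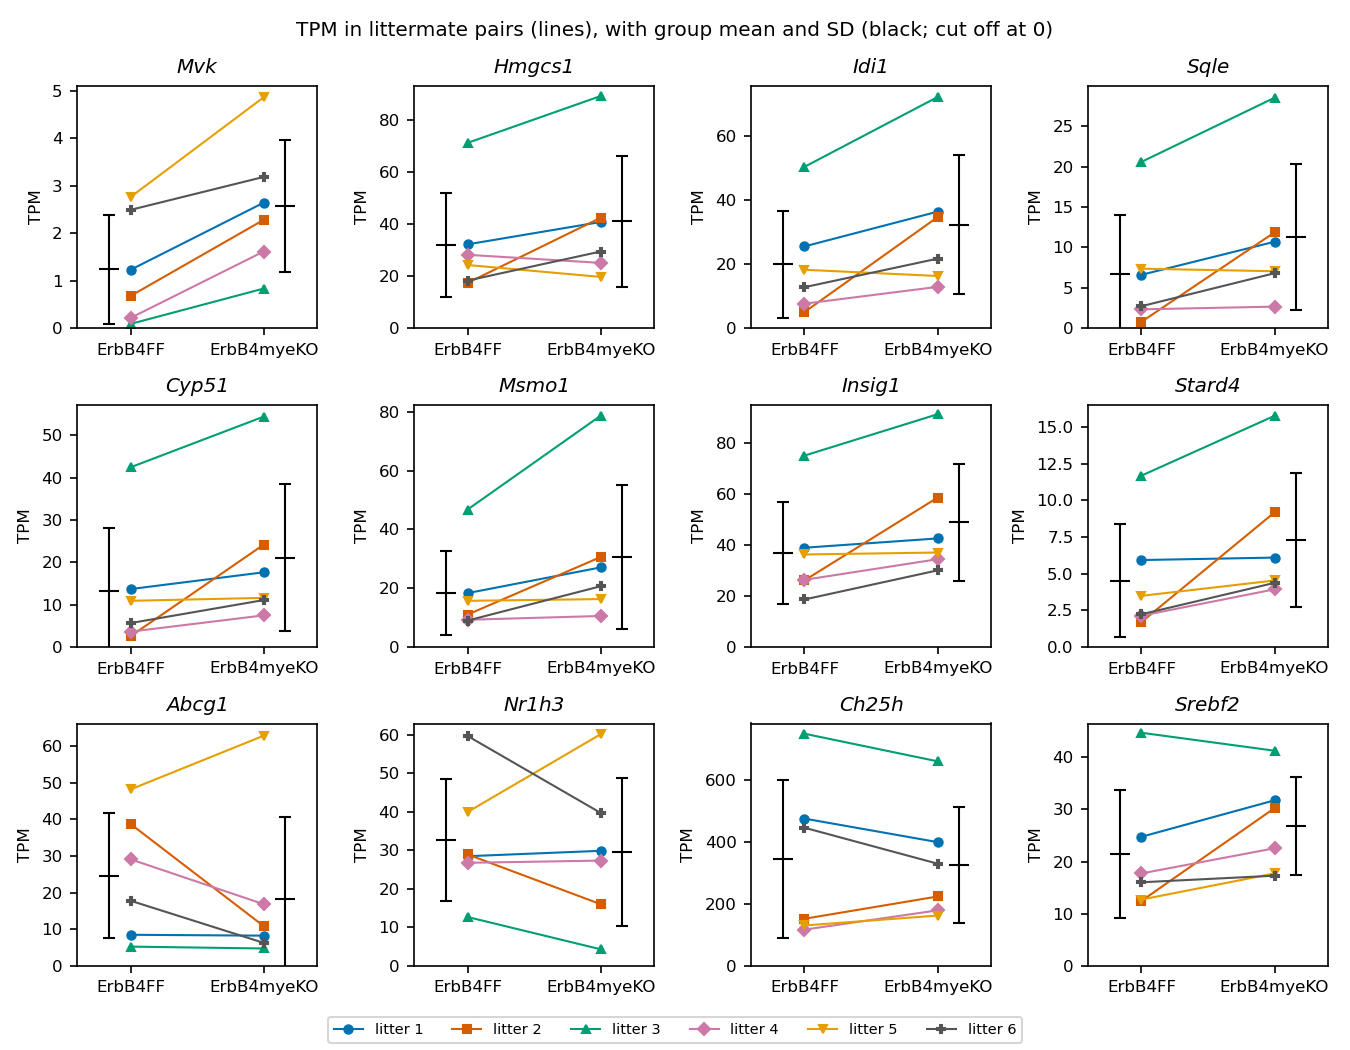
TPM of 12 genes in ErbB4FF (left) and ErbB4myeKO (right) libraries, with a line joining littermates, and the mean ± SD of 6 libraries in black. Lines of Mvk, Cyp51, Msmo1, Insig1 and Stard4 go up in all 6 litters, litter 3 lies at the top for most enzymes, and 5 of 6 lines of Abcg1 go down.

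Squalene and the sterol ring are made by the enzymes that follow. Fdft1, squalene synthase, had a mean log2 ratio of 0.62 ± 0.74 with 5 of 6 litters higher, and 0.35 without litter 2. Sqle (chromosome 15, 59315077 to 59331192), squalene epoxidase and a rate-limiting step, had 0.789, 4.66 and 20.6 TPM as the lowest, median and highest of ErbB4FF and 2.67, 8.88 and 28.5 TPM of ErbB4myeKO libraries. Its mean ratio of 0.94 ± 1.21 rested on litter 2, where it was 3.26, and was 0.48 without that litter. Sqle was also not called between litters (limma adjusted p = 0.062). Lss, which closes the ring to lanosterol, had a mean ratio of 0.44 ± 0.46.

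Lanosterol is turned into cholesterol by demethylases, reductases and an isomerase. Cyp51 (chromosome 5, 4081145 to 4104746), the lanosterol 14α-demethylase, had 2.53, 8.27 and 42.5 TPM as the lowest, median and highest of ErbB4FF and 7.46, 14.6 and 54.4 TPM of ErbB4myeKO libraries. It was higher in 6 of 6 litters with a mean ratio of 0.95 ± 1.07, and 0.53 without litter 2. Msmo1, the C4-methyl sterol oxidase, was higher in 6 of 6 litters too, with a mean ratio of 0.69 ± 0.54 and 0.54 without litter 2, and it had the smallest adjusted p for litter among the enzymes (limma, 0.00624). Hsd17b7, the ketoreductase of the same demethylation, had a mean ratio of 0.68 ± 0.62, whereas Nsdhl, the dehydrogenase before it, had 0.06 ± 0.15. Sc5d, the desaturase, had 0.45 ± 0.62, and 0.24 without litter 2. Ebp, the isomerase, had -0.07 ± 0.49, although it was higher in 5 of 6 litters, and 0.12 without litter 3. Dhcr7 had -0.17 ± 0.80, and from -0.40 without litter 5 to -0.04 without litter 4, and Tm7sf2, a C14 sterol reductase, had -0.25 ± 0.93, the lowest mean of the enzymes. Tm7sf2 had 1.25, 1.89 and 2.61 TPM as the lowest, median and highest of ErbB4FF libraries. In ErbB4myeKO libraries it had 1.81 TPM at the median and 3.42 TPM at the highest, while litter 4 was listed at 1.81e-08 TPM. Without litter 4 the mean ratio of Tm7sf2 was 0.06.

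The promoters of the enzymes were then searched for the letters bound by the factors of this pathway, a property of the reference sequence that no library value enters. RefSeq (GRCm38.p6) windows of 300 bases, 250 before and 50 after the annotated start, were at hand for 28 of the 34 genes, among them 16 enzymes. TCACNCCAC, a form of the sterol regulatory element (SRE) that SREBP binds, occurred on either strand in 1 of 16 enzymes, Hmgcs1, and in 1.37% of the 6986 genes tested that had a window. With 1 mismatch allowed it occurred in 7 of 16 enzymes (43.8%) and in 28.7% of the genes tested. CCAAT, read by NF-Y, which often works beside SREBP, occurred in 15 of 16 enzymes (93.8%) and in 42.3% of the genes tested. GGGCGG, a core of Sp1 sites, occurred in 14 of 16 enzymes (87.5%) and in 69.6%, and the E-box CACGTG in 3 of 16 (18.8%) and in 12.5%. AGGTCA repeated with a gap of 4 bases, the layout LXR binds, occurred in 0 of the 28 genes and in 0 of the genes tested. Motifs were allowed to overlap, and a match of letters is not a bound site.

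**Figure D4:**
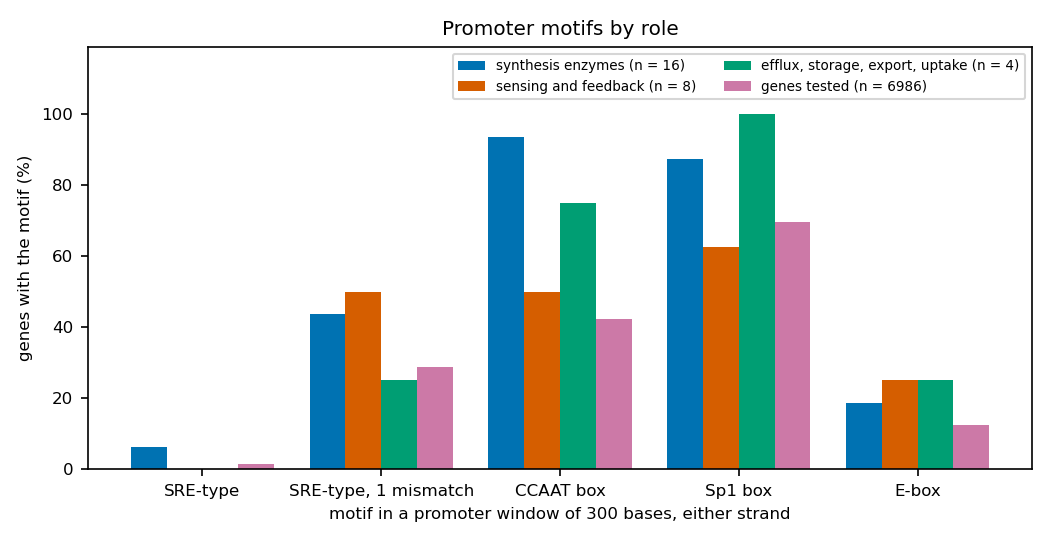
Bars give the percentage of genes with each motif in their promoter window, for enzymes of synthesis (16 genes), sensing and feedback (8), efflux, storage, export and uptake (4) and all genes tested with a window (6986). The tallest gap between enzymes and all genes tested is that of the CCAAT box, 93.8% against 42.3%, and the bars of the smallest groups move by 12.5 or 25 points with a single gene.

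The promoter of Hmgcs1 carries the single SRE-type match, 128 bases before the start, with the nearest CCAAT box 34 bases away. That of Mvk holds 5 CCAAT boxes, 9 to 168 bases before the start, and no SRE-type match. They are shown with those of Insig1 and Mylip, described below, and of Ch25h, which had the smallest p for litter and holds none of the 5 motifs in its window. Each sequence runs 5′ to 3′ on the strand of the gene and keeps only the bases before the start that lie outside any GENCODE exon. Capitals mark CCAAT or its reverse complement ATTGG and, in Hmgcs1, the SRE-type match TCACCCCAC.
Hmgcs1, chr13:119690101.0-119690350.0, plus strand: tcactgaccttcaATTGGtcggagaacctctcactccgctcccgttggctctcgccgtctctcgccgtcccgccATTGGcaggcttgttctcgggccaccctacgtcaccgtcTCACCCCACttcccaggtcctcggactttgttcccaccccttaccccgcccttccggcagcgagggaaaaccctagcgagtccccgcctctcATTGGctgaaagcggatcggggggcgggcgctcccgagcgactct
Mvk, chr5:114444061.0-114444268.0, plus strand: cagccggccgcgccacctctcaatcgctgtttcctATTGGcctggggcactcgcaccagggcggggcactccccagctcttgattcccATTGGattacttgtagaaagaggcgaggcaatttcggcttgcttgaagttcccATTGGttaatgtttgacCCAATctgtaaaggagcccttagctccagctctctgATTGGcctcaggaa
Insig1, chr5:28071162.0-28071362.0, plus strand: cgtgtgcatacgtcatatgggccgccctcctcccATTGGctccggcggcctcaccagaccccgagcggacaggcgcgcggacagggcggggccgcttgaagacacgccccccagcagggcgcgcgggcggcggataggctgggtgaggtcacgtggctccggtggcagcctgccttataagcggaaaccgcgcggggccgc
Mylip, chr13:45389492.0-45389741.0, plus strand: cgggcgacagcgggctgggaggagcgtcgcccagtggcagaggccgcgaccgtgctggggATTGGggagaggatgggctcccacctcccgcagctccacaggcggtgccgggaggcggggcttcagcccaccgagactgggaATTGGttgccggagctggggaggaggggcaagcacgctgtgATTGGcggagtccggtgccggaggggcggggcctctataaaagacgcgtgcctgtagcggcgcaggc
Ch25h, chr19:34475165.0-34475382.0, minus strand: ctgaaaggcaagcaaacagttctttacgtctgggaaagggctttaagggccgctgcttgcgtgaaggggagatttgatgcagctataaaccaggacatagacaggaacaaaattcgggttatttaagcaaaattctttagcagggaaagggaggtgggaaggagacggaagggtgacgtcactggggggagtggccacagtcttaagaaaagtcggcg
Mvk and Mylip, with 5 and 3 boxes, were at opposite ends in litter 3, Mvk at its lowest and Mylip at its highest. Mvk was near the floor there, at 0.0893 TPM in ErbB4FF and 0.834 TPM in ErbB4myeKO. Whether the boxes go with these levels was not tested.

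Fdps had a pair of transcripts in the table, and they did not share 1 direction. The gene lies at chromosome 3, 89093588 to 89101959, on the minus strand. ENSMUST00000081848 has 10 exons, and ENSMUST00000196709 has 11, with a further exon of 216 bases (89100921 to 89101136) before the start codon, so that both have the same coding ranges. ENSMUST00000081848 had 22.7, 6.64, 62.1, 11.2, 55.4 and 20.3 TPM in ErbB4FF litters 1 to 6 and 22.3, 34.8, 35.04, 8.89, 48.6 and 32.5 TPM in ErbB4myeKO, and it was higher in 2 of 6 litters. ENSMUST00000196709 had 4.34, 2.51, 9.36, 1.97, 2.72 and 5.26 TPM in ErbB4FF and 6.61, 4.08, 29.01, 5.92, 7.44 and 7.11 TPM in ErbB4myeKO, and it was higher in 6 of 6 litters. The mean log2 ratio was 0.27 ± 1.11 for the former, and -0.14 without litter 2, and 0.97 ± 0.51 for the latter. The longer transcript made up 4.68 to 27.4% of the TPM of the gene in ErbB4FF and 10.5 to 45.3% in ErbB4myeKO libraries. The share was lower in ErbB4myeKO in litters 2 (10.5 against 27.4%) and 6 (18.0 against 20.6%) and higher in the other 4. Of the 31-base words of these transcripts 92.1% and 98.2% also occur in another Fdps transcript. Only 95 and 24 of their words are in no other Fdps transcript, so the split between them is uncertain. Another gene, among them Gm43738, Gm3571 and Gm5873, also holds 85.8% and 89.7% of the words. The level and the ratio of the gene as a whole are therefore uncertain too.

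**Figure D5:**
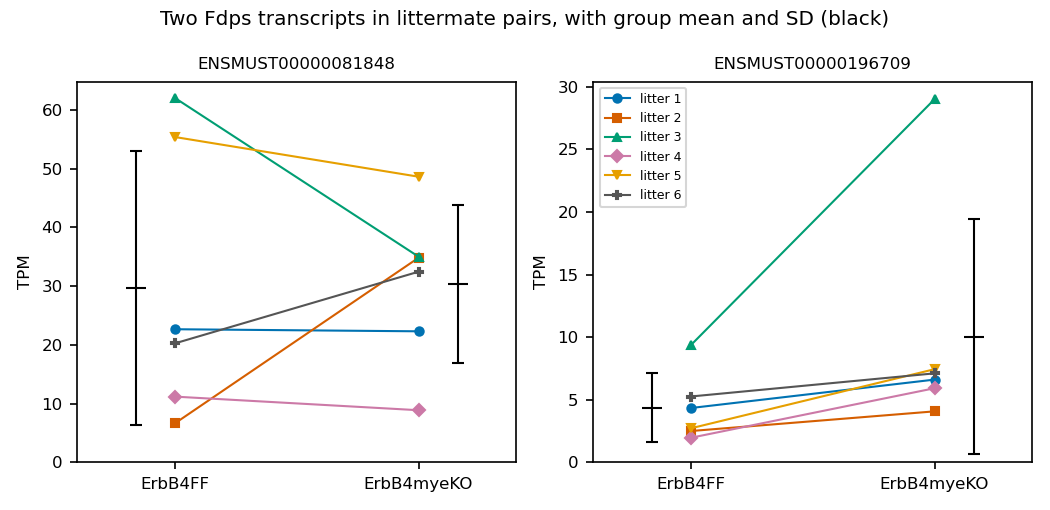
TPM of the transcripts ENSMUST00000081848 (left) and ENSMUST00000196709 (right) of Fdps in ErbB4FF and ErbB4myeKO libraries, with littermates joined and the mean ± SD of 6 libraries in black. All 6 lines of ENSMUST00000196709 go up, with litter 3 reaching 29.01 TPM, whereas 4 of 6 lines of ENSMUST00000081848 go down.

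Among the genes of sensing and feedback, 4 had a mean log2 ratio above 0 and 4 below, with a median of 0.05. Insig1 (chromosome 5, 28071363 to 28078662), an SREBP target that retains SCAP in the endoplasmic reticulum, had the largest mean. It had 18.6, 31.2 and 74.9 TPM as the lowest, median and highest of ErbB4FF and 30.0, 39.7 and 91.1 TPM of ErbB4myeKO libraries. The mean ratio was 0.44 ± 0.41, higher in 6 of 6 litters, and 0.30 without litter 2. Its place was not fixed, since without litter 2 Srebf1 had a larger mean, 0.37. Insig2, its paralog, had -0.05 ± 0.38, and Scap had -0.00 ± 0.22.

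The transcription factors themselves differed in their pattern. Srebf2, whose product drives cholesterol synthesis, had 12.4, 16.9 and 44.7 TPM as the lowest, median and highest of ErbB4FF and 17.3, 26.4 and 41.3 TPM of ErbB4myeKO libraries, with a mean ratio of 0.40 ± 0.47, 0.23 without litter 2. Litter 3 was the highest in both genotypes, as for the enzymes, and litters differed (limma adjusted p = 0.0251). Srebf1, whose products act more on fatty acid genes, had 1.48, 9.23 and 15.0 TPM in ErbB4FF and 5.51, 11.1 and 11.9 TPM in ErbB4myeKO libraries. Its mean ratio of 0.29 ± 0.95 came from litter 5, where it was 1.90, and was -0.03 without it, and litter was not called (limma adjusted p = 0.15). Nr1h2, which encodes LXRβ, had a mean ratio of -0.00 ± 0.29. Nr1h3 had 12.7, 28.7 and 59.8 TPM as the lowest, median and highest of ErbB4FF and 4.26, 28.6 and 60.2 TPM of ErbB4myeKO libraries. Its mean ratio was -0.37 ± 0.74, the lowest of these genes, from -1.47 in litter 3 to 0.59 in litter 5. It was -0.15 without litter 3, and -1.03 ± 1.70 from its highest transcript alone.

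Ch25h (chromosome 19, 34473778 to 34475164) followed litter and not genotype. ErbB4FF litters 1 to 6 had 475, 151, 748, 116, 130 and 445 TPM, and ErbB4myeKO littermates had 399, 223, 659, 178, 162 and 329 TPM. Litters 1, 3 and 6 were high and litters 2, 4 and 5 low in both genotypes, and the mean ratio was 0.10 ± 0.45. The 3 high litters had lower values in ErbB4myeKO and the 3 low litters had higher ones. The 10 interferon targets listed beside it had median ratios of -0.21, -0.88, -0.10, -0.19, -0.03 and -0.49 in litters 1 to 6, with 5 of 10 lower at an unadjusted p under 0.05, where 4.38% of all genes tested were lower. Ch25h was higher in litter 2, where that list was lowest, and whether the list had a part in the values of Ch25h was not tested.

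Among the 7 genes of efflux, storage, export and uptake, 4 had a mean log2 ratio above 0 and 3 below, with a median of 0.02. Stard4 (chromosome 18, 33199355 to 33213862), an SREBP target that moves cholesterol between membranes, stood with the enzymes. It had 1.70, 2.85 and 11.7 TPM as the lowest, median and highest of ErbB4FF and 3.93, 5.31 and 15.8 TPM of ErbB4myeKO libraries. The mean ratio was 0.75 ± 0.74, higher in 6 of 6 litters, and 0.48 without litter 2. Mylip had 33.4, 52.2 and 114 TPM in ErbB4FF and 39.5, 55.2 and 154 TPM in ErbB4myeKO libraries, with a mean ratio of 0.24 ± 0.32, 0.36 without litter 6, and 5 of 6 litters higher. It is known as an LXR target, but it was highest in litter 3 in both genotypes, as most enzymes were (limma adjusted p for litter, 0.00261).

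The efflux pumps had the lowest ratios of their role. Abcg1 (chromosome 17, 31057675 to 31117988) had 8.44, 38.7, 5.21, 29.1, 48.2 and 17.8 TPM in ErbB4FF litters 1 to 6 and 8.21, 10.8, 4.70, 16.8, 62.9 and 6.24 TPM in ErbB4myeKO. It was lower in 5 of 6 litters with a mean ratio of -0.63 ± 0.85, the lowest of the 34 genes. Without litter 2 the mean of Abcg1 was -0.40, and that of Tm7sf2, -0.42, was lower. The values of litter 2, 4 and 6 made up most of that difference, while litters 1 and 3 were nearly level. Abca1 (chromosome 4, 53030787 to 53159895), which loads cholesterol onto apolipoprotein A1, had 3.54, 9.87 and 15.5 TPM as the lowest, median and highest of ErbB4FF and 3.39, 7.65 and 11.1 TPM of ErbB4myeKO libraries. Its mean ratio was -0.28 ± 0.45, with 5 of 6 litters lower, and -0.13 without litter 3, and litters differed (limma adjusted p = 0.0096). Soat1 had 0.05 ± 0.22, Npc1, the lysosomal membrane exporter, 0.02 ± 0.27, and Npc2 -0.10 ± 0.15, the 3 steadiest genes of this role.

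Other genes of the pathway that are not among the 34 were counted from lists. Of 17 tested genes in a list of SREBP targets, processing factors and membrane lipid enzymes, 3 were higher and 0 lower at an unadjusted p under 0.05, where 3.83% of all genes tested were higher and 4.38% lower, and the median ratio was 0.09. Of the fatty acid genes in that list, Fasn, Scd1, Elovl6 and Fads2 were under the filter and not tested, so they could not be among the 3. Those tested were not among the 3 either. Acaca, which starts fatty acid synthesis, had a mean ratio of 0.30 ± 0.20, and Scd2 and Fads1, which are desaturases, had 0.39 ± 0.44 and 0.11 ± 0.24. Acly and Acss2, which supply acetyl-CoA, had 0.08 ± 0.22 and -0.15 ± 0.40. Of 15 tested genes of LXR action and sterol handling 0 were higher and 1 was lower, Plin2, which coats lipid droplets, with -0.26 ± 0.28, and the median was 0.01. Nceh1, which hydrolyses stored cholesterol ester, had -0.40 ± 0.52, and Cyp27a1, a sterol hydroxylase, had -0.39 ± 0.52. Rxrb had the largest mean of the list, 0.69 ± 0.97, while Rxra had 0.18 ± 0.21 and Apoe 0.06 ± 0.26, so the list had no shared direction. Of 11 tested genes that use isoprenoids, for protein prenylation, dolichol or ubiquinone, 0 were past that limit in either direction. The limma test called 7 of 17, 8 of 15 and 1 of 11 of these genes between litters at an adjusted p under 0.05, where 44.9% of all genes tested were called.

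Stromal and proliferation markers had high median ratios in litters 2 and 6, where the enzymes had their highest. Single markers went the other way. In litter 2 these were Pecam1 of the stromal list (-1.78) and Birc5 of the proliferation list (-0.10). In litter 6 they were Dcn (-0.06) and Cdk1 (-0.20). The remaining markers of both lists had ratios above 0 in these litters. The 6 stromal markers had median ratios of -0.17, 1.23, -0.69, -0.91, 0.67 and 0.95 in litters 1 to 6, and summed to 30.4 to 294 TPM in ErbB4myeKO and 24.4 to 224 TPM in ErbB4FF libraries. For 7 tested proliferation markers of 8 the medians were -0.02, 0.64, -0.40, -0.02, 0.09 and 0.53, and all 8 summed to 30.0 to 45.2 TPM and 19.0 to 52.5 TPM. Neutrophil markers, of which 5 of 11 were tested, had medians of 0.13, 0.01, -0.95, -0.06, 0.21 and 1.01 and summed to 41.3 to 375 TPM and 42.5 to 186 TPM. Dendritic cell markers, of which 3 of 7 were tested, had medians of 0.35, 0.60, 0.39, 0.88, 0.01 and 0.66 and summed to 44.5 to 122 TPM and 30.6 to 94.0 TPM. Most of these sums was Ccr7 (means 53.5 and 41.7 TPM), which the paper counts among its M1 macrophage genes. Xcr1 had 15.6 and 11.1 TPM, while Flt3, Zbtb46 and Dpp4 had 0.03, 0.12 and 0.24 TPM in ErbB4myeKO and 0.02, 0.21 and 0.23 TPM in ErbB4FF. The sums are therefore no measure of dendritic cells. The neutrophil list was thus high in litter 6 and not in litter 2, and the dendritic cell list was highest in litter 4. Their part in the values of the cholesterol genes was not tested. Retnlg of the neutrophil list and Siglech of the dendritic cell list were at 0 in all 12 libraries.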

How the data were processed

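Polyadenylated RNA of M1-activated BM-Mɸs from 6 ErbB4myeKO and 6 ErbB4FF mice was sequenced, and libraries were grouped by the labels and paired by litter number. The authors pseudoaligned single-end reads of 75 bp with kallisto and deposited TPM for principal transcripts, 28808 of them after 405 repeated lines were dropped (59.0 to 74.7% of a library's TPM). The labels also name mm10, CASAVA and sleuth, with versions not given in the sources used here. The deposited sleuth columns of p-values, q-values and model terms, and a log2 ratio, hold the authors' own comparison and were not used. TPM carry no read depth, so precision rests on the spread between litters, and p-values measure the spread between these cultures.

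Transcripts of a gene were summed and log2(TPM + 0.5) was taken. The 8780 genes that averaged 1 TPM or more entered a limma fit (limma 3.58.1, R 4.3.3, eBayes with trend) of genotype, blocked by litter. A gene was called at a Benjamini-Hochberg adjusted p under 0.05. Littermates deviated together (correlation of log2 deviations from the group means 0.273 to 0.774 in 6 litters), and the pairing comes from the labels. Litter was tested with limma's F-test. The fit and the motif search were tested on simulated data. Positions, exons and 31-base words come from GENCODE M21 (GRCm38), and promoters from RefSeq (GRCm38.p6). Python 3.11.15, pandas 2.3.3 and numpy 2.4.6 were used.

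The 34 genes, their roles and all lists were chosen with earlier results of these data known. Library values are given for 12 genes set by name and for the gene with the largest and the smallest mean ratio of each role, and in part for others, and the remaining members are given by their mean ratio and SD. Genes of the other lists that are not named are only counted. Alternatives were no block, a covariate of 4 Y-linked genes, a pseudocount of 0.1 or 1, no filter or 5 TPM, median-ratio rescaling, no trend, each litter left out, only the highest transcript of a gene, only transcripts detected in all libraries, and for motifs 1 mismatch or the part before the start.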

Additional observations from a re-analysis of the deposited data

Results flagged for a closer look

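There were 111 groups of 6 values. A group was the TPM of a gene or Fdps transcript in a genotype, its 6 within-litter log2 ratios, or the median ratios of 1 of 3 roles. The value furthest out was set against Dixon's critical value, and 23 groups passed it. For normally distributed values chance passes it in about 1 of 20 groups. TPM entered without a log, so that rate may not hold for the groups of TPM. In litter 3 the ErbB4myeKO library stood above the other 5 for Hmgcs1 (89.0 TPM), Fdft1 (25.0), Sqle (28.5), Cyp51 (54.4), Msmo1 (78.7), Hsd17b7 (9.86) and the Fdps transcript ENSMUST00000196709 (29.01). Its ErbB4FF littermate stood above the other 5 for Hmgcs1 (71.0 TPM), Sqle (20.6), Lss (4.93), Cyp51 (42.5), Msmo1 (46.7), Hsd17b7 (5.23) and Insig1 (74.9). The libraries of that litter thus gave 14 of the 23. In litter 5 the ErbB4myeKO library stood above the rest for Abcg1 (62.9 TPM).

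Among log2 ratios, litter 2 stood above the other 5 for Idi1 (2.67), Fdps (2.03), Sqle (3.26) and Cyp51 (3.03). Single ratios stood below the others for Lss in litter 4 (-0.44), Ebp in litter 3 (-1.05), Nr1h2 in litter 5 (-0.56) and Mylip in litter 6 (-0.37). These groups are not independent, as genes of the same pathway shared their litter order.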

How the results depend on the processing

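With litter left out as a block, genes at an unadjusted p under 0.05 for genotype dropped from 721 to 75. The cholesterol genes among them dropped from 9 to 0. The Y-linked covariate, added beside the block, gave 297 and 3 (Mvk, Lss and Hsd17b7). It is no adjustment for sex, as the block already holds the Y-linked split. Leaving out 1 litter gave 413 (without litter 2) to 864 genes, and 7 to 11 cholesterol genes. Calls at an adjusted p under 0.05 (limma) stayed at 0 with and without the replicate block and under every other alternative but 1, as without litter 3 there was 1 call (Igkv1-88, adjusted p = 0.0490), so leaving out 1 litter gave 0 to 1. Genes called for litter ranged from 1002 (without litter 5) to 4092, and cholesterol genes from 6 to 21, where 20 were called in all 6 litters and 11 with no filter. The SRE-type motif occurred in 1 enzyme, and in 7 with 1 mismatch. The medians of the roles moved by less than 1 SD, the largest move being that of the enzymes from 0.44 to 0.20 without litter 2. Of 470 ratios of single genes under alternatives 468 moved by less than 1 SD, and the others were Mvk (1.42 with a pseudocount of 0.1) and Nr1h2 (-0.57 from its highest transcript alone). There were 19 changes of sign, in 11 genes, and of 21 genes whose mean was 0.2 or more in size, only Tm7sf2 and Srebf1 had one. Rescaling by median ratios moved the median of a library by at most 0.08. Depth is unknown, so the precision of low genes such as Mvk and Dhcr7 could not be stated.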

Other observations

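Transcripts of the LXR genes shared nearly all of their sequence, and their levels swung between libraries. The sum over transcripts ran from 27.1 to 42.6 TPM for Nr1h2 and from 4.26 to 60.2 TPM for Nr1h3. Nr1h2 had 3 transcripts in the table, with 98.4 to 100% of their 31-base words in another transcript of the gene. ENSMUST00000073488 had 27.3 TPM in the ErbB4myeKO library of litter 3 and 3.51 TPM in its littermate, where ENSMUST00000167197 had 13.0 and 36.1 TPM, and the gene had 40.3 and 40.1 TPM. For Nr1h3, ENSMUST00000111354 ranged from 0.00322 to 45.03 TPM, both in ErbB4myeKO libraries. Hmgcs1 also had a minor transcript, ENSMUST00000224188, which was at 0 in the ErbB4FF libraries of litters 2 and 5 and reached 16.3 TPM in litter 3, and 92.3% of its 31-base words also lie in the other Hmgcs1 transcript of the table. Of Acat2, 50.5% of the words also occur in Acat3, so its level is uncertain.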
